A study of Rattus norvegicus with 14 samples.

Results

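Messenger RNA of cytosolic ribosomal proteins was followed in IEC-6 cells, a non-transformed line from the rat small intestine, after exposure to non-steroidal anti-inflammatory drugs. The genes were those whose symbol in the array annotation is Rpl or Rps followed by a digit. The S6 kinases, which share the Rps prefix, and predicted loci were left out. The rule matched 53 probe sets of 48 genes, and 43 genes reached a signal of 100 on at least 2 of the 14 arrays (31 named Rpl for the large subunit and 12 named Rps for the small subunit), out of 9840 named genes measured. Where a gene had several probe sets, the one with the highest average log2 signal stood for it. The 5 genes that did not reach the signal minimum were Rpl3l, Rpl37-ps2, Rps4y2, Rps13 and Rps4x-ps1. The nearest to it was Rps13, at 108.8 on 1 array and below 100 on the others. Among those just above it, Rpl26l1 reached 100 on 3 arrays, at 101.5, 105.5 and 101.5.

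Cells were kept for 72 h with 100 µM indomethacin, which blocks both cyclooxygenases (2 arrays), 100 µM NS-398, which prefers cyclooxygenase-2 (4 arrays), 1 µM SC-560, which prefers cyclooxygenase-1 (4 arrays), or the solvent DMSO (4 arrays). The dose of SC-560 thus differed from that of the other drugs. Per the design text, indomethacin and NS-398 slow cell migration while SC-560 lacks this effect, cultures were pooled, and several arrays were hybridised per pool. Arrays of a group may thus be technical repeats, and p-values reflect array-to-array spread only. Array labels carry a digit, with or without the suffix b, which splits them into a set b of 8 arrays and a set without the suffix of 6. Both indomethacin arrays belong to set b. What the suffix stands for is not given in the sources used here.

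Ribosomes are built from ribosomal RNA and a fixed complement of proteins, most of which are present in a single copy per particle. Their genes are among the most strongly transcribed of a growing cell, and in intestinal crypts ribosome supply accompanies cell renewal. Many mammalian ribosomal protein mRNAs begin with an oligopyrimidine tract, the TOP element, through which mTOR and Larp1 control their translation. A signal on these arrays reports mRNA abundance and not translation.

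The start of the genes shows a feature that the choice by name did not use. RefSeq promoters of the rat build GRCr8 were found for 38 of the 43 genes. In the window from 10 bases before to 20 bases after the annotated start, the longest unbroken run of C or T on the gene's strand was measured. A run of at least 8 bases stood in 19 of the 38 windows (50%), against 10.6% of the windows of 27457 genes. The median run was 8 bases in the ribosomal protein genes and 4 bases over all genes. The length of 8 was set after the sequences had been seen, and the annotated start may differ from the start used in these cells. The windows below are written 5′ to 3′ with the longest run in capitals. The first 9 belong to the genes that rose under NS-398 in each label set in a fit over both sets (4 of them when the set without the suffix was fitted alone), and 8 of these 9 hold a run of at least 8 bases. Among all 32 bright genes matched, which include these 9, 17 hold one. A link between the run and the rise was not tested.
Rpl12, chr3:36661930-36661959, plus strand: aacatccgTCTTTTCggctttcggttcgga
Rpl13a, chr1:104748894-104748923, minus strand: TCCTTTCCTaggcggctgccgaagatggcg
Rpl14, chr8:129163610-129163639, plus strand: ggCCCTCTCCCTTCTCgctgagcgccgcca
Rpl19, chr10:83519054-83519083, plus strand: ccagcaagCTCTTTCCTTTCgctgctgcgt
Rpl23, chr10:83272165-83272194, minus strand: CTTCCTTTCTgactctttccggacgctcaa
Rpl35, chr3:43165902-43165931, minus strand: CTTCCTCTTTCTCTCgaaccgggcggcctc
Rpl35a, chr11:81235002-81235031, minus strand: tcttgCCTTCCTCTTTCCgccatcttggcg
Rps15, chr7:10068096-10068125, minus strand: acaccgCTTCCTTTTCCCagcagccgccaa
Rps23, chr2:23814507-23814536, plus strand: ccttcctgCCTCTCTTCTCTCTTTCTCTCg
The next 7 windows belong to genes without a call under NS-398 over both label sets, Rpl21 and Rpl24 of the bright class and 5 dim genes. Of the dim genes, 2 of the 6 matched (Rpl28 and Rpl39) held a run of at least 8 bases, against 17 of the 32 bright genes matched.
Rpl21, chr12:13386134-13386163, minus strand: ttccgccggggcagccaTCTTCCaggttgg
Rpl24, chr11:58128386-58128415, minus strand: tagggaggagaTTCTCTaccctataaggtg
Rpl28, chr1:78083513-78083542, minus strand: cccctagtgTCTTTCTTTCCgtctccggcc
Rpl39, chrX:121195877-121195906, minus strand: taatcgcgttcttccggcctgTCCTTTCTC
Rpl7l1, chr9:21695708-21695737, plus strand: cagatgcattgtgggaagCCTTTaactcgt
Rpl39l1, chr10:5966602-5966631, minus strand: caggccgTCCCgctatcctggtgtgtggtc
Rps27l, chr8:76443648-76443677, plus strand: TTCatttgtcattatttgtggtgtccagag
Genes that rose over both sets also included some with short runs, such as Rpl6 with 2 bases and Rpl41 with 3.

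The 43 genes fell into a bright and a dim class, a division made after the signals had been seen. The mean signal was over 15000 for 36 genes and under 3000 for the other 7 (Rpl7l1, Rps27l, Rpl39l1, Rpl28, Rpl39, Rpl30 and Rpl26l1), with none between. A dim probe set can also bind its transcript poorly, so the classes are classes of signal. The 36 bright genes sat at the top of the array: only 150 probe sets had a mean over 15000, and 44% of these were ribosomal, counting the 36 genes and 30 probe sets that list several ribosomal protein symbols. Together the 43 genes took 3.78% and 3.86% of the summed signal on the indomethacin arrays, 4.16% to 4.37% on the NS-398 arrays, 3.79% to 4.36% on the SC-560 arrays and 3.55% to 4.00% on the DMSO arrays.

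Of 13 epithelial markers on the array, 2 (Cdh1 and Krt8) reached a signal of 100 on all arrays and 5 (Epcam, Krt18, Cldn3, Cldn4 and Cldn7) on none. Of 11 fibroblast and smooth muscle markers, 7 reached it on all arrays, and Vim, Col1a1, Col1a2 and Col3a1 had mean signals over 15000. Of 4 leukocyte markers, 3 (Ptprc, Itgam and Cd3e) reached 100 on no array and Cd68 on 2. Of 3 endothelial markers, Tek reached it on all arrays, Kdr on 5 and Pecam1 on none. Cdx2, a transcription factor of intestinal epithelium, lay between 3072 and 5314 on the arrays of set b and between 55.0 and 124 on the arrays without the suffix. Between the sets (b minus no suffix), 5 of 8 epithelial markers tested rose, among them Cdx2 and Krt19, and 2 fell, with log2 differences of -1.34 for Cdh1 and -1.49 for Ocln. Of 9 fibroblast and smooth muscle markers 3 rose, Col1a2 the most with 1.41, and 4 fell, Dcn the most with -1.58. Over all probe sets tested 31% rose and 28% fell in this comparison. Vil1, an epithelial marker, reached the signal minimum on arrays of set b alone, and Cdx2 mainly there. The signals of Vil1 were 67.5 to 196 in set b and 6.23 to 33.3 without the suffix. The counts of markers between the sets thus partly follow from the filter and are not read as a result. The part of these markers in the results below was not tested. In RNA from whole cultures, fewer cells of a type and less RNA per cell cannot be told apart.

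Under NS-398 most ribosomal protein mRNAs were slightly higher than under DMSO. With the authors' scaling, 34 of the 43 genes rose and 0 fell (limma, adjusted p under 0.05, over 4 NS-398 and 4 DMSO arrays), against 7.12% of all 17515 probe sets tested that rose and 6.39% that fell. All 34 belonged to the bright class. The change was small: its median over the 43 genes was 0.21 on the log2 scale, 1.16-fold, against -0.01 over all probe sets. Both NS-398 arrays lay above both DMSO arrays in each label set for 33 of the 43 genes, against 10.8% of all probe sets.

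This rise depended on the scale on which arrays were compared. The other bright probe sets leaned the same way. They were the 80 probe sets with a mean over 15000 that list no Rpl or Rps symbol, and Rack1, a scaffold on the ribosome, was among them. Probe sets without a symbol were not screened for ribosomal sequences. Of these 80, 37 rose and 3 fell, with a median of 0.14. Probe sets with means from 5000 to 15000 had a median of 0.01. When each array was centred on those 80 probe sets, an alternative chosen after seeing the data, 18 ribosomal protein genes rose and 1 fell (Rpl28), against 3.39% of all probe sets that rose and 20.5% that fell, and the median was 0.09. After quantile normalization, which gives every array the same distribution and so fixes the sum of the brightest probe sets, 2 genes rose (Rpl14 and Rpl35), against 6.27% of all probe sets, and the median was 0.03. Relative to the other bright probe sets the bright ribosomal protein genes stood at 1.226 to 1.258 times their level on the NS-398 arrays. On the DMSO arrays the ratio was 1.147 to 1.202, so these groups did not overlap. The SC-560 arrays, at 1.169 to 1.227, overlapped both, and the indomethacin arrays stood at 1.182 and 1.186. The geometric mean signal of the bright ribosomal protein genes was 25734 and 25956 on the NS-398 arrays against 21293 and 21416 on the DMSO arrays of set b. Without the suffix it was 26919 and 27148 against 24579 and 24597. Cell type markers also changed under NS-398: of 8 epithelial markers tested 1 fell (Krt8, -0.30 ± 0.05, limma, adjusted p = 0.000354), and of 9 fibroblast and smooth muscle markers 1 rose (Dcn) and 2 fell (Tagln and Col1a2). Of all probe sets 7.12% rose and 6.39% fell under NS-398 with the authors' scaling. The part of the markers in the change of the ribosomal protein genes was not tested.

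**Figure D1:**
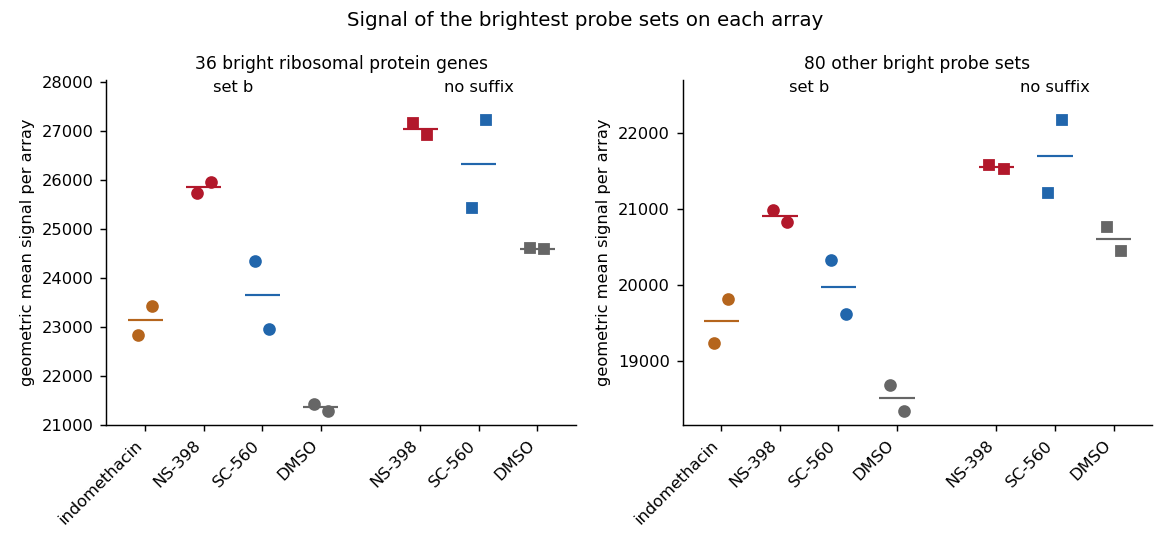
Geometric mean signal (y axis, not starting at 0) of the 36 bright ribosomal protein genes (left) and of the 80 other bright probe sets (right) on each array. Points are arrays, circles for set b and squares for the set without the suffix, and lines are group means. NS-398 arrays lie above the DMSO arrays of their own set in both panels, and arrays without the suffix lie above those of set b under the same treatment.

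The largest rises among called genes were in the large subunit. Rpl12, a protein of the stalk base where elongation factors bind, had signals of 32107, 32128, 30228 and 30699 on the NS-398 arrays, in the order 1, 2, 1b and 2b, against 27553, 27138, 23881 and 24076 on the DMSO arrays. All 4 NS-398 values lay above all 4 DMSO values. The change was 0.29 ± 0.04 (SE, limma, adjusted p = 0.000156).

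Rpl5 and Rpl11 carry 5S ribosomal RNA into the large subunit, and in human and mouse cells their free forms bind Mdm2 and stabilise p53, as Rpl23 does. Rpl5 read 36093, 31480, 28577 and 29670 on the NS-398 arrays against 30126, 28181, 22247 and 23498 on the DMSO arrays, a rise of 0.28 ± 0.06 (limma, adjusted p = 0.00343). The groups separated within each set but overlapped across sets. Rpl11 read 27258, 25527, 25581 and 24928 on the NS-398 arrays against 23933, 24890, 21387 and 22040 on the DMSO arrays. No NS-398 value lay below a DMSO value, and the rise was 0.17 ± 0.04 (limma, adjusted p = 0.00691). After quantile normalization the change in Rpl11 was -0.04. Rpl23 read 33150, 31198, 29332 and 29351 under NS-398 against 27448, 27807, 23948 and 23074 under DMSO. It rose by 0.27 ± 0.04 (limma, adjusted p = 0.000417), with no overlap of the groups.

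Rpl35, whose protein lies at the exit of the peptide tunnel, read 25017, 25801, 26463 and 27019 under NS-398 against 22600, 22555, 21155 and 20818 under DMSO, and rose by 0.26 ± 0.04 (limma, adjusted p = 0.000277). Every NS-398 array lay above every DMSO array, and Rpl35 was one of the 2 genes that still rose after quantile normalization, by 0.09. Rpl19 read 26591, 26555, 26743 and 26532 under NS-398 against 23336, 22674, 21912 and 21738 under DMSO. The NS-398 values were nearly equal in the sets, and the rise was 0.25 ± 0.04 (limma, adjusted p = 0.00049). Rpl23a, whose protein contacts the signal recognition particle together with Rpl35, rose by 0.14 ± 0.04 (limma, adjusted p = 0.0423) and lost its call without 1 or another of the arrays, as did Rpl18, Rpl34 and Rps3.

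Rpl14, a protein of the large subunit's solvent side, had signals of 20798, 20620, 19275 and 19044 under NS-398 against 19027, 17445, 15899 and 16744 under DMSO. It rose by 0.21 ± 0.04 (limma, adjusted p = 0.00144) and by 0.11 after quantile normalization. Rpl13a, which in human cells also takes part in translational silencing outside the ribosome, read 25132, 25528, 24638 and 24180 under NS-398 against 22995, 22710, 20748 and 20563 under DMSO. It rose by 0.19 ± 0.04 (limma, adjusted p = 0.0021), again with no overlap. Rpl26, Rpl7a and Rpl41, the last of these the smallest ribosomal protein, rose by 0.25, 0.25 and 0.23. Rpl3, which reaches the peptidyl transferase centre, rose by 0.22, and Rpl35a, a gene of Diamond-Blackfan anaemia in humans, by 0.23.

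In the small subunit 11 of the 12 genes rose, with a median of 0.21 over the 12, and the exception was the relative Rps27l. Rps6, whose protein is the classical substrate of the S6 kinases, read 28631, 29320, 28408 and 30161 on the NS-398 arrays against 26040, 25962, 22618 and 22979 on the DMSO arrays. It rose by 0.26 ± 0.05 (limma, adjusted p = 0.00391), and all NS-398 arrays lay above all DMSO arrays. Rps16, in the head of the small subunit, rose by 0.27 ± 0.05 (limma, adjusted p = 0.0017), and its groups overlapped across the sets, at 28232 to 31783 under NS-398 against 22755 to 28335 under DMSO. Rps23, part of the decoding centre, read 34668, 34649, 33940 and 33446 under NS-398 against 30980, 31299, 27652 and 27596 under DMSO, and rose by 0.22 ± 0.04 (limma, adjusted p = 0.000748). Rps3, at the mRNA entry and also known as a DNA repair factor, rose by 0.22 ± 0.06 (limma, adjusted p = 0.015), with its lowest NS-398 array at 25841 and the other three between 28447 and 28674. Rps3a, Rps24, Rps9 and Rps15 rose by 0.25, 0.24, 0.21 and 0.20. Rps15a and Rps29 rose by 0.16 and 0.20, and both changed sign after quantile normalization, to -0.04 and -0.01, as did Rpl7, to -0.04.

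The bright genes without a call were Rpl21 and Rpl24. Rpl21 read 18154, 18404, 17411 and 16362 on the NS-398 arrays against 16804, 17028, 16821 and 16211 on the DMSO arrays. The groups overlapped, at a difference of 0.07 ± 0.04 (limma, adjusted p = 0.289). Rpl24, which joins the large subunit late in its assembly, read 19828, 21657, 18467 and 16500 under NS-398 against 20663, 20330, 17599 and 16896 under DMSO. The difference was 0.02 ± 0.05 (limma, adjusted p = 0.871), and in each set the DMSO values lay between the NS-398 values.

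**Figure D2:**
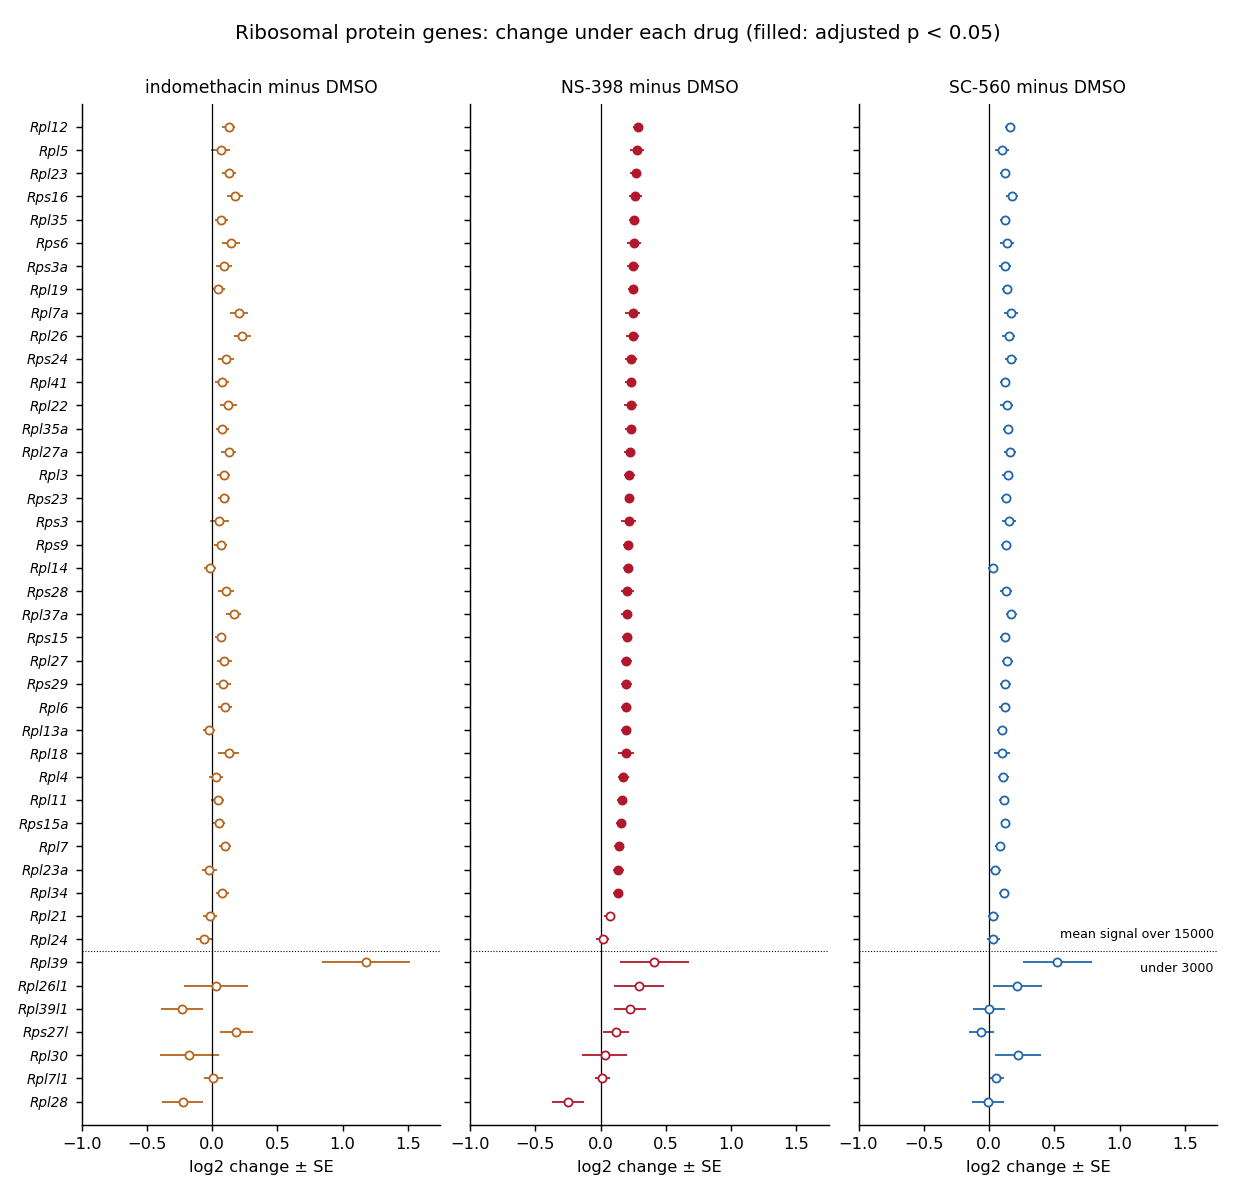
Log2 change with its standard error (x axis) of each ribosomal protein gene (rows) under indomethacin, NS-398 and SC-560, each minus DMSO, with filled points where the adjusted p was under 0.05. The dotted line parts the 36 bright genes above from the 7 dim ones below. Filled points are in the NS-398 panel alone, at 0.13 to 0.29, and the SC-560 and indomethacin points of most bright genes lie between 0 and the NS-398 points.

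Several genes had a second, much dimmer probe set. Those of Rpl3, Rpl7, Rpl14 and Rps24 had mean signals of 113 to 922 and no call under NS-398, and both probe sets of Rpl7l1 were without a call. The change in the second Rps24 probe set was -0.25 ± 0.17 (limma, adjusted p = 0.37), against 0.24 ± 0.05 (limma, adjusted p = 0.00325) in the bright one. When the probe sets of a gene were averaged, 30 genes rose, all of them among the 34, and the change in Rps24 was -0.01.

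The dim genes held the relatives of core proteins. Rps27l, a relative of Rps27 that p53 induces in human and mouse cells, read 1234, 1284, 1321 and 914 under NS-398 against 1128, 1023, 1108 and 1064 under DMSO. The groups overlapped, at a difference of 0.12 ± 0.10 (limma, adjusted p = 0.475). Rpl7l1, a relative of Rpl7 found in precursors of the large subunit, differed by 0.01 ± 0.06 (limma, adjusted p = 0.915). Rpl28 read 220, 197, 102 and 123 under NS-398 against 212, 199, 170 and 192 under DMSO. Its values lay below DMSO in set b and overlapped it without the suffix, and over both sets the difference was -0.25 ± 0.12 (limma, adjusted p = 0.189).

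**Figure D3:**
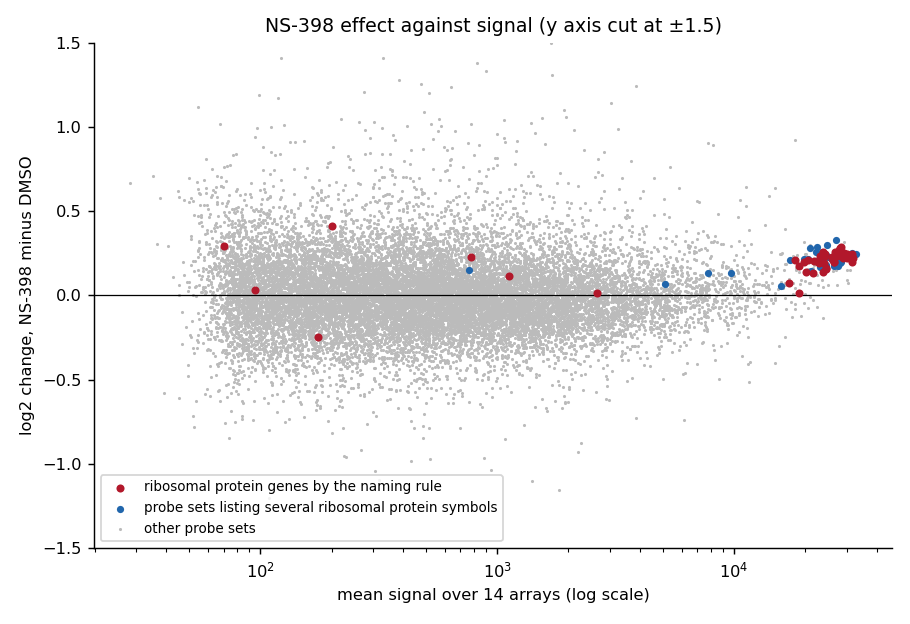
Log2 change under NS-398 minus DMSO (y axis, cut at ±1.5) against the mean signal over the 14 arrays (x axis, log scale) for all 17515 probe sets tested. Ribosomal protein genes are red, probe sets that list several ribosomal protein symbols are blue and all others grey. The bright ribosomal probe sets form a cluster above 0 at signals over 15000, where many grey points also lie above 0, while of the 7 dim members 6 lie above 0 and Rpl28 below it, with no call.

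The probe sets that list several ribosomal protein symbols were not assigned to a gene, but they give a second reading. Of 34 tested, 29 rose under NS-398 and 0 fell, with a median of 0.21. Ribosomal proteins whose names do not follow the rule also rose. Rack1, a scaffold at the head of the small subunit, read 22275, 22446, 21521 and 22150 under NS-398 against 19641, 19309, 17792 and 17795 under DMSO, with no overlap, and rose by 0.25 ± 0.04 (limma, adjusted p = 0.000462). Rplp0, the stalk protein, rose by 0.21 ± 0.05 (limma, adjusted p = 0.00664), and Rpsa, on the small subunit, by 0.18 ± 0.04 (limma, adjusted p = 0.00656).

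Whether the effect of NS-398 differed between the label sets was tested in a fit of the 12 arrays without indomethacin. In set b 34 of the 43 genes rose and 1 fell (Rpl28), with a median of 0.29, against 7.5% of all probe sets that rose and 6.7% that fell. Without the suffix 11 rose and 0 fell, with a median of 0.14, against 5.81% of all probe sets that rose and 5.47% that fell. The rise was called in each set for 9 genes (Rpl12, Rpl13a, Rpl14, Rpl19, Rpl23, Rpl35, Rpl35a, Rps15 and Rps23). When the set without the suffix was fitted alone, on fewer arrays, 5 genes rose, against 9.48% of all probe sets called in either direction. Of the 9 only Rpl12, Rpl19, Rpl23 and Rpl35a stayed called. The estimate was larger in set b for 35 of the 36 bright genes, but the interaction itself was called for 1 gene, Rps28, against 5.47% of all probe sets called in either direction. The other bright probe sets leaned the same way: the estimate was larger in set b for 64 of the 80, and 12 were called. Their median interaction was 0.12, against 0.13 in the 43 genes. Over all 17515 probe sets the estimate was larger in set b for 8676.

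Rps28, a small protein at the mRNA exit, had signals of 23755 and 24468 on the NS-398 arrays against 19460 and 19020 on the DMSO arrays of set b. Without the suffix it had 22538 and 22617 against 20916 and 21585. The change was 0.33 ± 0.04 in set b and 0.09 ± 0.04 without the suffix, a difference of 0.24 ± 0.06 (limma, adjusted p = 0.0325). The call was lost without any 1 of the 4 DMSO arrays and without NS-398 array 1, 2 or 2b, with adjusted p up to 0.12. With 1 array left out, 0 to 4 genes were called, 3 without NS-398 array 1b and 4 without SC-560 array 1 or 2. Centred on the other bright probe sets the difference in Rps28 was 0.13 (limma, adjusted p = 0.179).

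Of the dim genes, 2 relatives rose under NS-398 without the suffix alone, and neither interaction passed. Rpl39l1, a relative of Rpl39, read 446 and 408 on the NS-398 arrays against 282 and 276 on the DMSO arrays without the suffix. It rose there by 0.53 ± 0.14 (limma, adjusted p = 0.0192). In set b it read 1254 and 1005 against 1331 and 1059, a difference of -0.08 ± 0.14 (limma, adjusted p = 0.771). Rpl26l1, the relative of Rpl26, read 88.0 and 80.8 against 26.8 and 36.8 without the suffix, values below the signal minimum, and rose there by 0.72 ± 0.20 (limma, adjusted p = 0.0292). The interactions, -0.61 ± 0.19 for Rpl39l1 (limma, adjusted p = 0.0738) and -0.85 ± 0.28 for Rpl26l1 (limma, adjusted p = 0.0873), did not pass.

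Under indomethacin 0 of the 43 genes were called over all 14 arrays (limma), against 3.27% of all probe sets. At an unadjusted p under 0.05 there were 10 genes, against 16.7% of all probe sets. The median change was 0.08, and 35 of the 43 estimates lay above 0. Both indomethacin arrays lay above both DMSO arrays of set b for 32 of the 43 genes, against 26.5% of all probe sets. Fitted on set b alone, where all indomethacin arrays lie, 10 genes rose and 0 fell, against 3.62% of all probe sets that rose and 3.08% that fell: Rpl26, Rpl7a, Rps16, Rpl18, Rpl37a, Rps6, Rpl22, Rpl27a, Rpl23 and Rps29. Between 0 and 3 genes were called when 1 array was left out of the fit of all arrays, with 2 or 3 without NS-398 array 2 or 2b or SC-560 array 1. After quantile normalization the median was 0.00 and no gene was called.

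Rpl26, a large subunit protein that in human cells also binds p53 mRNA, read 30200 and 31458 under indomethacin against 25274 and 25328 on the DMSO arrays of set b. Its change was 0.23 ± 0.07 over all arrays (limma, adjusted p = 0.0624) and 0.28 within set b (limma, adjusted p = 0.00357). Rpl7a read 28913 and 29502 under indomethacin against 24440 and 24079 under DMSO in set b, and Rps16 read 26430 and 27032 against 22774 and 22755. These groups did not overlap. Rpl14, which rose under NS-398, read 16133 and 16403 under indomethacin against 15899 and 16744 under DMSO, an overlap. The dim gene Rpl39 read 268 and 493 under indomethacin against 150 and 106 under DMSO in set b. Its change of 1.18 ± 0.34 did not pass (limma, adjusted p = 0.0676).

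Under SC-560 at 1 µM 0 of the 43 genes were called (limma), as were 0% of all probe sets. At an unadjusted p under 0.05 there were 30 genes, against 7.21% of all probe sets. The median change was 0.13, and 41 of the 43 estimates lay above 0. Both SC-560 arrays lay above both DMSO arrays in each label set for 24 of the 43 genes, against 5.14% of all probe sets. The other bright probe sets had a median of 0.10, and centring on them left a median of 0.03 in the ribosomal protein genes. After quantile normalization the median was 0.01.

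The arrays of SC-560 spread more widely than those of NS-398. Without the suffix the geometric mean of the bright genes was 25418 and 27219 on the SC-560 arrays, against 24579 and 24597 on the DMSO arrays, and in set b it was 24340 and 22948 against 21416 and 21293. Rpl12 read 28522, 31806, 27612 and 27010 under SC-560 against 27553, 27138, 23881 and 24076 under DMSO, above DMSO in each set, at a change of 0.16 ± 0.04 (limma, adjusted p = 0.414). Rpl5 read 26609, 30442, 26818 and 26811 under SC-560 against 30126, 28181, 22247 and 23498 under DMSO. The SC-560 values lay above DMSO in set b and on both sides of it without the suffix, at a change of 0.10 ± 0.06 (limma, adjusted p = 0.771). The interaction of SC-560 with the label set was called for 0 of the 43 genes, against 0.0171% of all probe sets (limma). At an unadjusted p under 0.05 there were 2 genes, against 5.93% of all probe sets.

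Comparisons of NS-398 with SC-560 set 100 µM against 1 µM, so drug and dose cannot be told apart in them. In NS-398 minus SC-560 5 genes rose (Rpl5, Rpl12, Rpl14, Rpl23 and Rpl35) and 0 fell, against 6.41% of all probe sets that rose and 6.29% that fell, with a median of 0.08. Rpl14, whose call alone held whichever array was left out, differed by 0.18 ± 0.04 (limma, adjusted p = 0.00518), at 20798, 20620, 19275 and 19044 under NS-398 against 18263, 18673, 17429 and 16261 under SC-560. The groups of Rpl14 did not overlap. The other 4 lost their call without 1 or another array. The count was 1 without NS-398 array 1b or SC-560 array 1, 2 without NS-398 array 1 or 2b or SC-560 array 2b, 3 without DMSO array 2 or 2b, and 7 without SC-560 array 2. Both NS-398 arrays lay above both SC-560 arrays in each set for 6 of the 43 genes, against 9.95% of all probe sets.

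Indomethacin and NS-398 were given at the same dose. In indomethacin minus NS-398 4 genes fell (Rpl13a, Rpl14, Rpl19 and Rpl35) and 0 rose, against 3.36% of all probe sets that fell and 2.08% that rose, with a median of -0.12. Within set b alone 21 genes fell, against 5.29% of all probe sets that fell, and the median was -0.16. Rpl13a read 19781 and 21608 under indomethacin against 24638 and 24180 under NS-398 in set b, a difference of -0.22 ± 0.05 (limma, adjusted p = 0.0113). Rpl19 read 22906 and 22096 against 26743 and 26532, a difference of -0.20 ± 0.05 (limma, adjusted p = 0.0262). Rpl35 read 22407 and 22961 against 26463 and 27019, a difference of -0.19 ± 0.05 (limma, adjusted p = 0.0314). Without indomethacin array 1b none of the 4 was called, and without indomethacin array 2b or NS-398 array 1b the count was 1 or 2. Across the 4 groups, the F test called 31 of the 43 genes, against 14.8% of all probe sets, and 17 or 18 without DMSO array 1b or 2b. The count was 14 without the signal filter, 11 centred on the other bright probe sets, 2 without the intensity trend and 1 after quantile normalization. Of all probe sets 6.2%, 20.7%, 10.7% and 14.1% were called in those settings.

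The ribosomal protein genes also differed between the label sets. In set b minus the set without the suffix 32 of the 43 genes fell and 4 rose, against 28% of all probe sets that fell and 31% that rose, with a median of -0.14. The other bright probe sets had a median of -0.17. The largest falls among the bright genes were in Rpl7 (-0.26 ± 0.03), Rpl26 (-0.25 ± 0.04), Rpl27a (-0.25 ± 0.04) and Rps24 (-0.25 ± 0.04), with limma adjusted p of 2.3e-07 for Rpl7. After quantile normalization 8 rose and 6 fell, against 28.8% and 29.1% of all probe sets, and Rpl3, Rpl11, Rpl12, Rpl13a, Rpl19, Rps6 and Rps23, which fell with the authors' scaling, had estimates above 0. The ratio of the 3′ to the 5′ actin control probe sets, a sign of how far labelled RNA reaches, was 1.218 to 1.338 in set b and 1.498 to 1.639 without the suffix. The same ratio for Gapdh overlapped between the sets, at 0.955 to 1.002 in set b and 0.902 to 0.99 without the suffix. Their part in the difference was not tested.

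A few genes were higher in set b. Rpl39l1 had the largest difference, 1.69 ± 0.10 (limma, adjusted p = 1.79e-10). Its signals ran from 882 to 1331 on the 8 arrays of set b and from 257 to 446 on the 6 arrays without the suffix, with no overlap. Rpl22, whose paralog Rpl22l1 it represses in mouse, was the bright exception at 0.22 ± 0.04 (limma, adjusted p = 0.00015). It read 21522 to 27501 in set b and 19771 to 22575 without the suffix, which overlapped. The other two of the 4, Rpl30 and Rpl26l1, passed the signal minimum mainly through arrays of set b (Rpl26l1 on arrays of set b alone, and Rpl30 on 1 array without the suffix), so their difference between the sets follows from the filter and is not read as a result. Rpl28 fell by 0.38 on the log2 scale, at 102 to 192 in set b and 197 to 223 without the suffix.

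**Figure D4:**
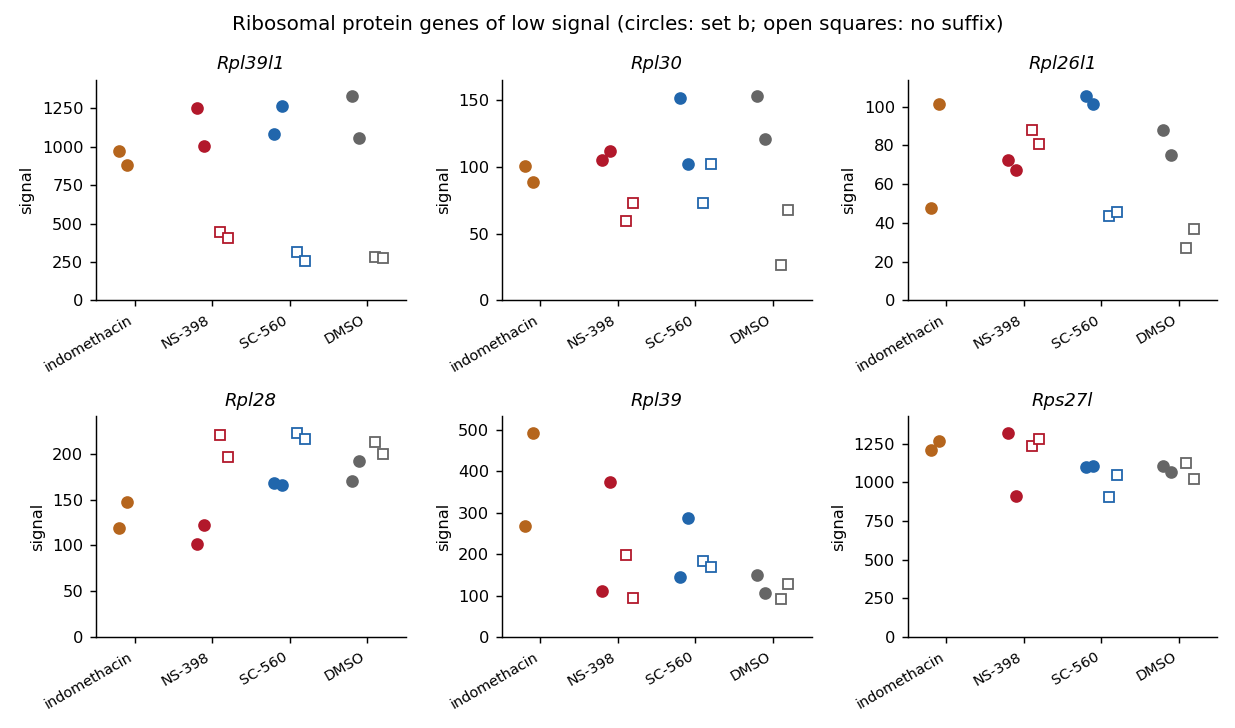
Signal (y axis, from 0) of 6 dim ribosomal protein genes under each treatment, with circles for arrays of set b and open squares for arrays without the suffix. Rpl39l1 lies at 882 to 1331 in set b and at 257 to 446 without the suffix under every treatment. The lowest Rpl28 value, 102, is an NS-398 array of set b, and the highest Rpl39 value, 493, is an indomethacin array.

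The bright genes varied together over the arrays. After the means of the label sets were removed, the correlation of a gene with the mean of the other members over the 14 arrays had a median of 0.88. It was over 0.8 for 31 genes, up to 0.98 for Rpl12, and under 0.5 for 9. Those were the 7 dim genes, Rpl21 (0.34) and Rpl24 (-0.02), and Rpl28 had the lowest value, -0.52. Differences between the treatment groups were left in, so these correlations include the changes under the drugs given above. The arrays share their scaling, so part of this may be common to bright probe sets, and no test was made. By the same measure, the named genes outside the rule most like the members' mean were Rack1 (0.95), Rpsa (0.94), the elongation factor subunit Eef1g (0.94), the ribonuclease P subunit Rpp40 (0.94) and the calcium-binding protein S100a6 (0.93). The least like were the proliferation marker Mki67 (-0.94), Wls, which carries Wnt proteins to the surface (-0.93), the coatomer subunit Copg1 (-0.88), the glucocorticoid receptor Nr3c1 (-0.88) and the kinase Slk (-0.87).

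Other parts of the translation machinery were counted under NS-398, where 7.12% of all probe sets rose and 6.39% fell. Of 36 initiation factors 2 rose and 2 fell, among them Eif3f, a subunit of the eIF3 complex (0.23 ± 0.05, limma, adjusted p = 0.00457), and Eif2a (-0.35 ± 0.10, limma, adjusted p = 0.0241). Of 9 elongation and termination factors 4 rose, including Eef2, which drives translocation, by 0.26 ± 0.04 (limma, adjusted p = 0.000727), and Eef1a1 by 0.15 ± 0.05 (limma, adjusted p = 0.0411). The rise in Eef1a1 was larger in set b, by 0.26 ± 0.07 (limma interaction, adjusted p = 0.0363). Of 73 mitochondrial ribosomal proteins 2 rose and 6 fell, with a median of -0.03. Among 18 regulators of ribosomal protein translation 3 rose and 0 fell: Ddit4, an inhibitor of mTOR complex 1, by 0.87 ± 0.06 (limma, adjusted p = 1.96e-07), Sesn2, a leucine sensor upstream of it, by 0.60 ± 0.15 (limma, adjusted p = 0.0154), and Deptor, an mTOR-binding inhibitor, by 0.52 ± 0.16 (limma, adjusted p = 0.0399). The interaction with the label set was called for 3 of the 18, all lower in set b, against 2.55% of all probe sets. They were Sesn2 (-0.92 ± 0.21, limma, adjusted p = 0.0191), Deptor (-1.03 ± 0.15, limma, adjusted p = 0.00137) and Larp1 (-0.56 ± 0.11, limma, adjusted p = 0.00858). Sesn2 and Deptor rose without the suffix, by 1.06 ± 0.15 (limma, adjusted p = 0.000332) and 1.04 ± 0.11 (limma, adjusted p = 2.33e-05). Neither was called in set b, while Ddit4 rose in each set. Under indomethacin, where 1.51% of all probe sets rose and 1.76% fell, 3 of the 18 regulators rose and 0 fell. Those that rose were Ddit4 by 0.37 ± 0.08 (limma, adjusted p = 0.0168), Rheb, an activator of mTOR complex 1, by 0.22 ± 0.05 (limma, adjusted p = 0.0172), and Eif4ebp1, a repressor of cap-dependent initiation, by 0.40 ± 0.09 (limma, adjusted p = 0.0254).

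Factors of ribosome assembly went opposite ways in the label sets. Over both sets, 1 of 59 rose and 4 fell under NS-398. In set b 0 rose and 15 fell, with a median of -0.20, and without the suffix 13 rose and 1 fell, with a median of 0.17. Of all probe sets 7.5% rose and 6.7% fell in set b, and 5.81% rose and 5.47% fell without the suffix. The interaction was called for 15 of the 59, all lower in set b, among them Nop58, a core protein of box C/D particles (-0.77 ± 0.10, limma, adjusted p = 0.000369), and the nucleolar helicase Ddx21 (-0.78 ± 0.10, limma, adjusted p = 0.000409). In all probe sets the interaction was called lower in 2.55%. With the authors' scaling the bright ribosomal protein genes were above DMSO under NS-398 in both sets, 36 of 36 by estimate in each. Over both sets together 65 of the 80 other bright probe sets had estimates above 0, and 8450 of all 17515 probe sets. After quantile normalization some bright genes, such as Rpl7 and Rpl11 (both -0.04), had estimates below 0. Of 13 genes of RNA polymerase I and its factors, 1 rose and 0 fell over both sets: Myc, an activator of ribosome production, by 0.35 ± 0.09 (limma, adjusted p = 0.0154). In set b 0 of the 13 rose and 2 fell, and without the suffix 3 rose and 0 fell, among them Myc with 0.55 ± 0.09 (limma, adjusted p = 0.000984).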

How the data were processed

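The authors deposited linear signal intensities for 31099 probe sets on 14 one-colour Affymetrix arrays, scaled to a target signal of 500 per the labels. The deposited intensities had trimmed means of 500.16 to 500.17 on every array. No source used here names the summarising software. RNA was labelled after 2 rounds of amplification, per the labels' protocols.

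Gene symbols came from the array's annotation table and were brought up to date with RefSeq. Of the 43 members, 41 were found there, and Rpl37a and Rps9 kept the annotation symbol. Probe sets with several symbols (436) were not named, and 57 control probe sets were left out. The 17515 probe sets that reached a signal of 100 on 2 arrays were tested.

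Signals were fitted as log2(signal + 50) with limma 3.58.1 in R 4.3.3, with 4 group means, a label set term and an intensity trend. The interaction with the label set was fitted on 12 arrays. Adjusted p-values are Benjamini-Hochberg values over all probe sets tested, and ± gives standard errors. Fold changes are on the log2(signal + 50) scale, which understates changes of dim probe sets. The number of arrays limits the precision. The fit was tested on simulated data.

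The members, lists and tests were chosen with earlier results of these data known. The genes named are members called in a comparison (at most 12 in each direction, by size), the 5 highest and lowest in signal, the 5 largest set differences, relatives and proteins with roles outside the ribosome, and up to 3 called genes of each other list. Members outside this rule that the text names (Rpl6, Rpl18, Rpl21, Rpl23a, Rpl34 and Rpl37a) were chosen after their values were seen. The alternatives changed the pseudocount, filter, scaling, label set term, replicate block, trend and choice of probe set, or left out 1 array at a time.

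For the pairing check, deviations from group means were correlated between arrays: r was 0.69 to 0.79 for equal labels and 0.70 to 0.81 for the opposite digit within a set. After group and set means were removed r was -0.08 to 0.06, so the labels carried the set and no further pairing.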

Additional observations from a re-analysis of the deposited data

Results flagged for a closer look

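Dixon's test for a stray array was run on 105 combinations of a named gene and a group of 4 arrays, and 2 stood out, where chance gives about 1 in 20. Rpl5 read 30442 on SC-560 array 2, against 26609 to 26818 on the other SC-560 arrays. Rps3 read 25841 on NS-398 array 1b, against 28447 to 28674 on the other NS-398 arrays. The groups of 4 span both label sets. The effect of NS-398 on Rps28 differed between the label sets by 0.24 on the log2 scale (set b minus no suffix, limma interaction, adjusted p = 0.0325), and this call was lost without any 1 of 7 arrays (4 of DMSO and 3 of NS-398).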

How the results depend on the processing

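The scaling decided most calls. After quantile normalization the counts of genes called were 2 for NS-398 minus DMSO, 2 for NS-398 minus SC-560, 1 for indomethacin minus NS-398, 0 for the NS-398 interaction, 14 for the label set and 1 for the F test. The shares of all probe sets called there were 12.5%, 12.5%, 5.52%, 5.44%, 57.9% and 14.1%. The medians in that setting were 0.034 (NS-398), 0.008 (SC-560) and 0 (indomethacin), each minus DMSO, 0.018 for NS-398 minus SC-560, -0.027 for indomethacin minus NS-398, -0.003 for the label set, and 0.001 and -0.01 for the interactions of NS-398 and SC-560. Centred on the other bright probe sets, a setting chosen after seeing the data, the counts were 19 for NS-398 minus DMSO, 2 for indomethacin minus NS-398, 2 for the NS-398 interaction, 21 for the label set and 11 for the F test. Of all probe sets 23.9%, 5.89%, 7.52%, 60.9% and 20.7% were called. The medians were then 0.088, 0.033 and 0.026 for NS-398, SC-560 and indomethacin minus DMSO, -0.054 for indomethacin minus NS-398, -0.031 for the label set, and 0.021 and -0.002 for the interactions. Changes of sign were listed for called genes picked by the rule for naming genes. Under NS-398 after quantile normalization they were those of Rpl11 (-0.037), Rpl7 (-0.041), Rps15a (-0.044) and Rps29 (-0.014). With probe sets averaged Rps24 (-0.007) changed sign under NS-398. Between label sets after quantile normalization Rpl11 (0.006), Rpl12 (0.04), Rpl13a (0.034), Rpl19 (0.071), Rpl3 (0.037), Rps23 (0.071) and Rps6 (0.055) changed sign. Rpl13a (0.014) and Rpl19 (0.02) did so between label sets centred on the bright probe sets. Outside the rule, the called genes Rpl23a (-0.034), Rpl34 (-0.024), Rpl6 (-0.014) and Rpl37a (-0.011) also changed sign under NS-398 after quantile normalization. The cause was not tested.

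Without the label set term 1 gene was called for NS-398 minus DMSO and 0 for NS-398 minus SC-560, indomethacin minus NS-398 and the F test, while over all probe sets the share called was also low, at 0.634%, 0.502%, 0.0856% and 0.371%. The medians were 0.019 for indomethacin minus DMSO and -0.182 for indomethacin minus NS-398. Set b alone called 10, 12 and 21 genes for indomethacin minus DMSO, NS-398 minus SC-560 and indomethacin minus NS-398, against 6.7%, 12.4% and 9.31% of all probe sets. Its medians were 0.286 for NS-398 minus DMSO, 0.119 for NS-398 minus SC-560 and -0.16 for indomethacin minus NS-398. The set without the suffix alone, with fewer arrays, called 5 for NS-398 minus DMSO (median 0.143), 2 for NS-398 minus SC-560 (median 0.036) and 3 by the F test. Over all probe sets it called 9.48%, 9.55% and 8.74%. Without the signal filter the counts were 1 for NS-398 minus SC-560, 1 for indomethacin minus NS-398, 0 for the interaction and 14 for the F test, against 5.2%, 2.16%, 1.89% and 6.2% of all probe sets. Without the intensity trend they were 20 for NS-398 minus DMSO, 0 for NS-398 minus SC-560, 0 for indomethacin minus NS-398 and 2 for the F test. Of all probe sets 10.6% were called there for NS-398 minus DMSO, 3.74% for indomethacin minus NS-398 and 10.7% by the F test. For NS-398 minus SC-560 the share of all probe sets was slightly below that for NS-398 minus DMSO. A random block for group and label set called 2 and 2 for the comparisons of NS-398 with SC-560 and of indomethacin with NS-398, against 8.08% and 3.11% of all probe sets. The replicate block called 1 gene for indomethacin minus DMSO and 3 for NS-398 minus SC-560, and 32 for NS-398 minus DMSO, against 2.22%, 10.4% and 11.2% of all probe sets.

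With 1 array left out, the count ranged from 31 to 34 for NS-398 minus DMSO, 0 to 3 for indomethacin minus DMSO, 1 to 7 for NS-398 minus SC-560, 0 to 5 for indomethacin minus NS-398, 32 to 36 for the label set, 0 to 4 for the NS-398 interaction and 17 to 32 for the F test. The median SC-560 interaction ranged from 0.002 to 0.081. Single genes were followed under all alternatives where they were picked by the rule for naming genes and called in the fit described above. Of these values, 1513 kept their side of the threshold and direction, 250 kept direction only and 14 changed sign. Probe sets near the signal minimum, such as Rpl26l1 and Rpl30, limit what can be read from the dim genes.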
